A study of Homo sapiens with 41 samples.

Results

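Elongin A peaks were examined at the genes that encode the translation initiation factors (symbols starting with EIF) and the translation elongation factors (symbols starting with EEF) of human cells. The genes were chosen by a rule on the symbol, with earlier results of these data known. The study had itself listed translation factors among the most enriched pathways of Elongin A-occupied genes. Every protein-coding gene of the GENCODE annotation on hg19 whose symbol begins with EIF or EEF and a digit was taken, the kinases EIF2AK and EEF2K were left out, and 66 of 20149 protein-coding genes met the rule. Of these, 14 are accessory (methyltransferases of the factors, 4E-binding proteins and the like), among them 2 read-through genes that share sequence, and peaks, with a neighbouring member.

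Initiation factors bring the small ribosomal subunit and the initiator tRNA to an mRNA, unwind its leader and select the start codon. Elongation factors then deliver each aminoacyl-tRNA and move the ribosome along the coding sequence. Many of these genes are transcribed strongly in growing cells, and several carry small nucleolar RNAs (snoRNAs, guides for the modification of ribosomal RNA) in their introns. Elongin A is the largest subunit of Elongin, a complex that associates with RNA polymerase II and stimulates elongation on purified templates.

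The study mapped Elongin A in DLD1, 1 human colon cancer cell line, in cells that were not depleted of Elongin A by siRNA. CUT&RUN, in which a nuclease tethered to an antibody releases the DNA around a protein, was done on formaldehyde-fixed cells with a goat antibody in 2 replicates beside 1 goat IgG control, and with a mouse antibody in 1 sample beside 1 mouse IgG control. ChIP-seq was done with 1 Elongin A sample and 1 input. Each of the 3 peak lists holds one value per peak and none per replicate, so no value below has a replicate error and no test was made.

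The lists held 8720 peaks for the goat antibody, 2338 for the mouse antibody and 186 for ChIP-seq. Their median fold enrichments, the ratio of signal at the summit (the highest point of a peak) to the control background, were 4.32, 4.36 and 9.99. Sequencing depth is unknown, because the lists carry no read totals, and a gene without a peak cannot be called unoccupied. Among 10 colon epithelial genes 5 held a goat antibody peak (KRT8, KRT18, EPCAM, CDX2 and CDH1) and 5 had no peak in any list (VIL1, CDX1, CLDN3, KRT20 and LGALS4), and 1 of 9 genes of other cell types held one (PTPRC), where 21.7% of all protein-coding genes did.

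The goat antibody list placed a peak at 27 of the 66 translation factor genes, counting any overlap with the gene or 1 kb on either side. That is 40.9% of them (Wilson 95% interval 29.9 to 53.0), where 21.7% of all protein-coding genes had such a peak. The mouse antibody list placed a peak at 13 of the 66 (19.7%, 11.9 to 30.8), against 7.79% of all coding genes. These intervals cover counting error only, and members of one family or one locus are not independent. The study reported that genes with higher expression tended to have more Elongin A. The coding genes set beside the members, here and below, were not matched for expression. Whether expression bears on the differences was not tested. Without the 2 read-through genes, which rest on the peaks of EEF1E1 and EEF1AKMT4, the goat antibody count was 25 of 64.

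ChIP-seq gave a peak at 1 member, EIF2B3, which is 1.52% of the 66, where 0.784% of all coding genes had one. In all, 29 members had a peak in at least 1 list, 37 had none, 12 had peaks in 2 lists and 0 in all 3. The shares of all coding genes for these 4 counts were not computed, so the counts only describe the members. Peaks of both CUT&RUN antibodies stood at 11 members (16.7%, 9.57 to 27.4), against 4.74% of coding genes. At EEF1AKMT3, EIF3J, EIF4G1 and EIF4G3, which are among the 11, the peaks of the antibodies did not overlap. How often this held at other coding genes with peaks of both antibodies was not computed.

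**Figure D1:**
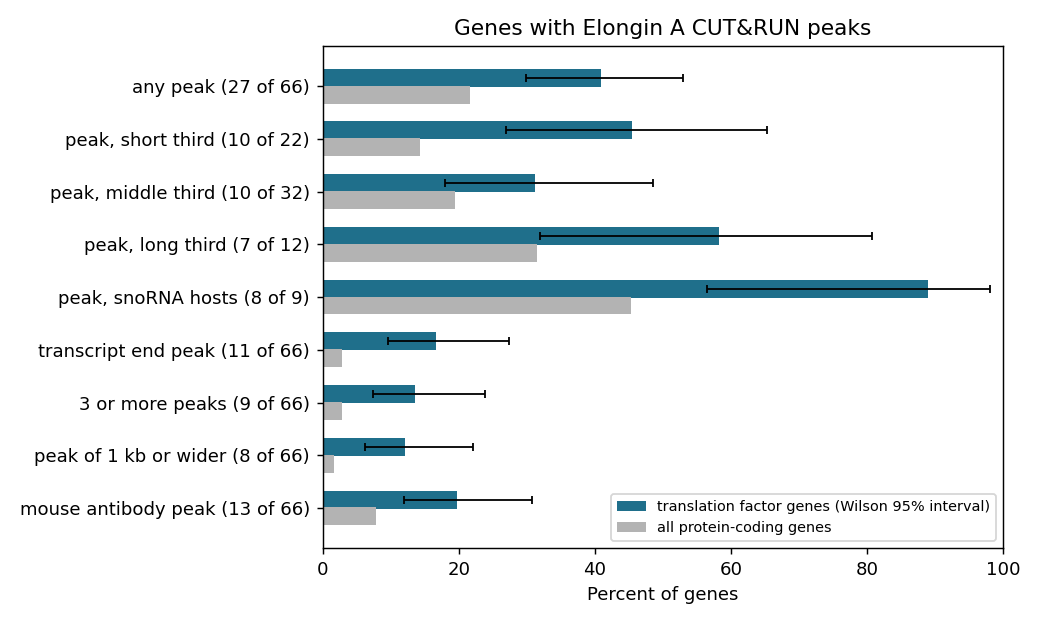
Percent of genes (horizontal axis) meeting each criterion, for translation factor genes (dark bars, Wilson 95% intervals, counts in the labels) and for all protein-coding genes (grey bars). All rows but the last use the goat antibody list, and transcript end, width and snoRNA host are defined in the text. The dark bar is longer than the grey bar in every row, from 27 of 66 members with any goat antibody peak to 8 of 9 snoRNA hosts.

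Longer genes offer more room for a peak, so the counts are also given by length. The canonical transcript (the main isoform marked by the annotation) had a median length of 18.0 kb over the members and 22.7 kb over all coding genes. With coding genes divided into equal tertiles by this length, 10 of 22 members in the short class (up to 11.6 kb) had a goat antibody peak, or 45.5% against 14.3% of all short coding genes. The middle class had 10 of 32 members (31.2% against 19.4%) and the long class, above 42.8 kb, 7 of 12 (58.3% against 31.5%). Those 7 include both read-through genes, whose peaks were also counted at EEF1AKMT4 in the short class and EEF1E1 in the middle class. The members with a goat antibody peak and those with none in any list had nearly the same median length, 17.8 and 17.7 kb.

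Peaks were not spread evenly over the members. The 57 different goat antibody peaks included 7 at EEF2, 5 each at EIF4A1 and EIF4G2, and 4 each at EEF1A1 and EIF5. Members with 3 or more goat antibody peaks numbered 9 (EEF1A1, EEF2, EIF3A, EIF4A1, EIF4A2, EIF4G1, EIF4G2, EIF5 and EIF5A), or 13.6% of the 66 against 2.86% of all coding genes. Of these 9, 6 were in the short class, which is 27.3% of the 22 short members against 1.73% of short coding genes. A peak of 1 kb or wider stood at 8 members (12.1% against 1.64%).

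**Figure D2:**
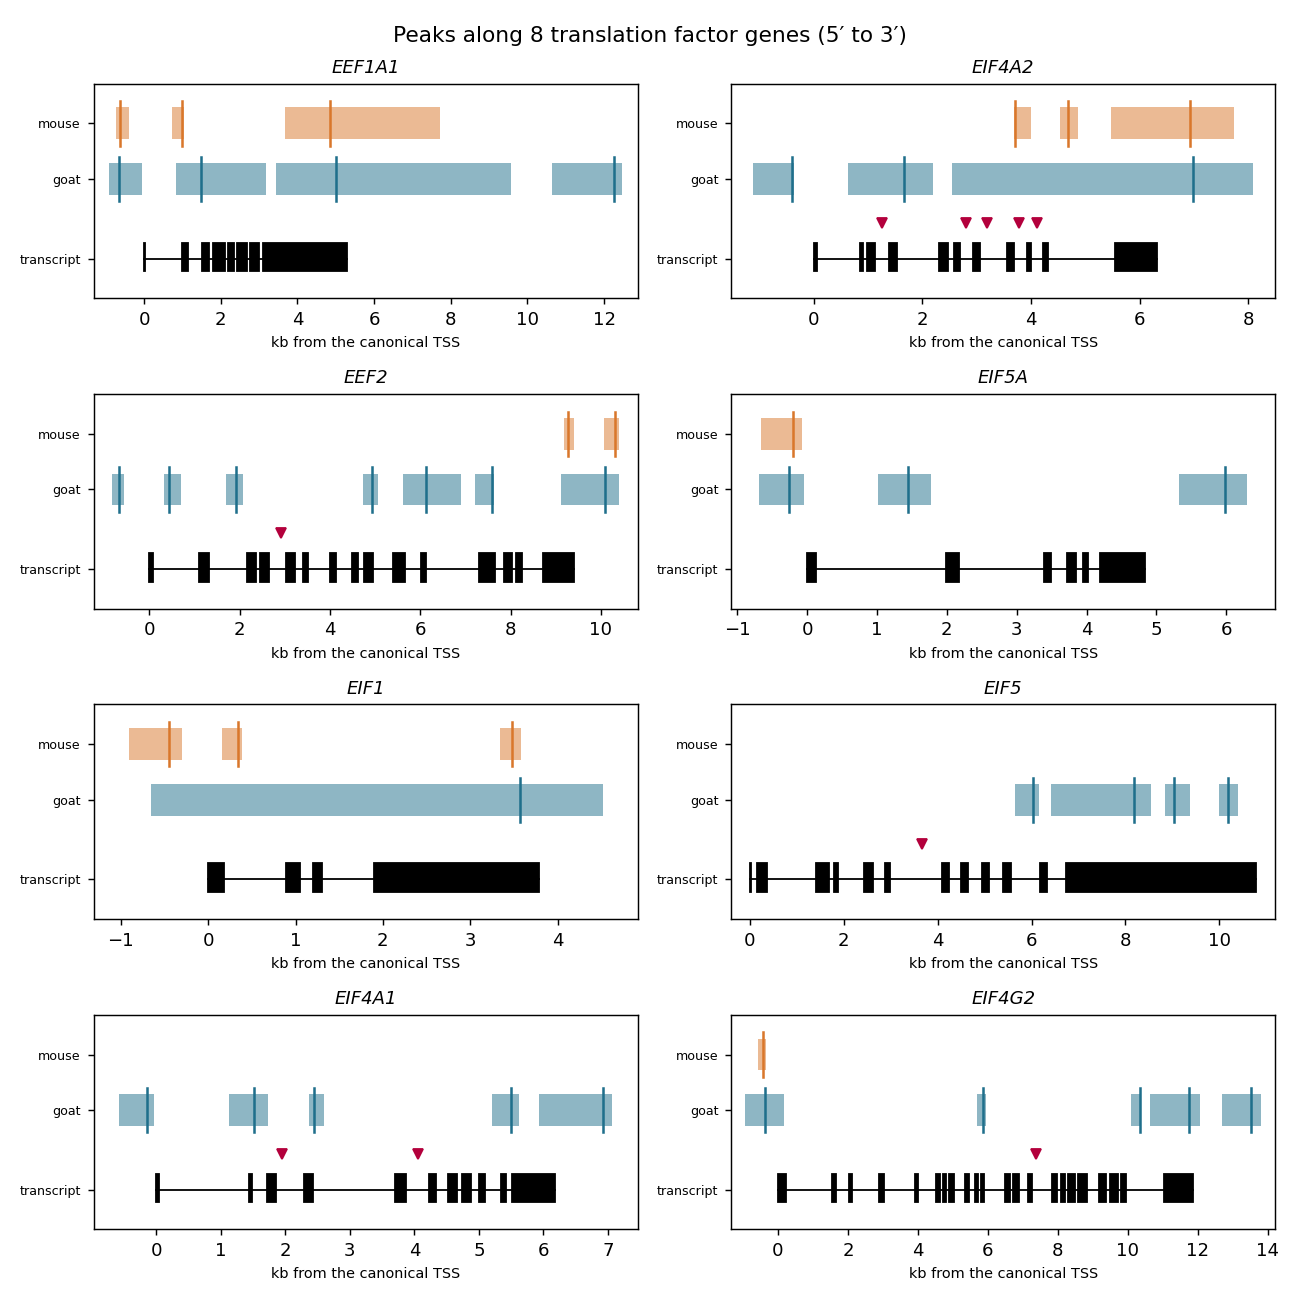
Peaks along 8 translation factor genes, drawn 5′ to 3′, with distance in kb from the transcription start site (TSS) of the canonical transcript on the horizontal axis. Black boxes are exons, red triangles snoRNA genes, blue bars goat antibody peaks and orange bars mouse antibody peaks, each with its summit as a vertical line. A peak covers the whole of EIF1, the last goat antibody peak of EIF4A2 extends past the transcript end, and EIF5 has peaks in its distal part only.

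The sequences at the transcription starts of the 9 members with 3 or more goat antibody peaks, and of EIF1, are shown because many mRNAs of the translation apparatus begin with a terminal oligopyrimidine (TOP) tract, a C followed by a run of C or T, through which their translation is regulated. Each line gives 20 bases before the canonical start in lower case and the first 10 transcribed bases in capitals, on the gene's own strand of hg19. EEF1A1 lies at chr6:74230746-74230775 on the minus strand, EEF2 at chr19:3985452-3985481 on the minus strand, EIF3A at chr10:120840320-120840349 on the minus strand and EIF4A2 at chr3:186501346-186501375 on the plus strand. EIF4A1 lies at chr17:7476123-7476152, EIF4G1 at chr3:184032374-184032403 and EIF5 at chr14:103800554-103800583, each on the plus strand. EIF1 lies at chr17:39845117-39845146 on the plus strand, EIF5A at chr17:7210927-7210956 on the plus strand and EIF4G2 at chr11:10830464-10830493 on the minus strand.
EEF1A1: cagtagtcgccgtgaacgttCTTTTTCGCA
EEF2: tgagtgttgacgtcagcgttCTCTTCCGCC
EIF3A: gggaggtcacgtggctccttCCTTTCCGTC
EIF4A2: gggtggttgggcgccgctgtCTTTTCAGTC
EIF1: aacacaggcaccgcccctctGCCCCAGTCA
EIF5A: agtggggagtcggcgcctgcGTACTAAGAC
EIF4G2: ggcttcagacacgccttagcGCCAGCAGTG
EIF4G1: cgggatctgtgcggggagccGGAAATGGTT
EIF4A1: tcgataggcgggcactccgcCCTAGTTTCT
EIF5: gcgcggcggcggcgttgttcAGTCAGAGCG
The first 4 begin with C and at least 4 further C or T, and the other 6 do not. EIF1, EIF5A, EIF4G2 and EIF4G1 begin with G, EIF5 with A, and EIF4A1 with a run of 3 C or T.

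A start of that kind, C followed by 4 or more C or T at the canonical start, was found at 21 of the 66 members (31.8%) and at 4.60% of 19869 coding genes with a canonical transcript. The share with a peak was no higher among the members with such a start. Of the 21, 7 had a goat antibody peak (33.3%), against 40.9% of all members, and against 29.9% of all coding genes with such a start. EIF1, EIF4A1, EIF4G1, EIF4G2, EIF5 and EIF5A had peaks without it, and EEF1B2, EEF1D and EIF2S3 had it without a peak. Of 10 members listed as known TOP mRNA genes, 5 had a goat antibody peak (EEF1A1, EEF2, EIF3A, EIF3E and EIF4B) and 3 a mouse antibody peak (EEF1A1, EEF2 and EIF3A). Both counts were above the shares over all members, 40.9% and 19.7%, and over all coding genes, 21.7% and 7.79%. The goat antibody share by the sequence rule was below that of all members. The letters TATAAA, searched on the gene's strand from 40 to 16 bases before the start, were present at 2 members, EEF2 and EIF4A2, which is 3.03% against 3.90% of coding genes.

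Among elongation factors, EEF1A1, which delivers aminoacyl-tRNA to the ribosome, was covered over most of its length. Positions are distances from the TSS of the canonical transcript, negative upstream. Its goat antibody peaks had fold enrichments of 3.91 with the summit at −660 bp from the TSS, 9.19 at 1486 bp, 9.89 at 5007 bp and 4.75 at 12268 bp, the last inside the neighbouring gene MTO1. The mouse antibody gave 4.64 at −625 bp, 3.89 at 995 bp and 6.79 at 4845 bp, the highest mouse antibody value at any member. The peak at 5007 bp was 6112 bp wide and ended 4279 bp past the transcript end. Goat antibody peaks lay over 79.4% of the 5283 bp transcript.

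The pairs of summits from both antibodies at EEF1A1 were 35 bp apart upstream of the start, 491 bp apart inside the gene and 162 bp apart near the transcript end. The sequence around the mouse antibody summit at 995 bp occurs at 4 places in the genome, so the place of that peak is uncertain. EEF1A1 has 49 annotated pseudogene copies, and the members together have 155. None of the 155 copies overlapped a peak in any of the 3 lists. The share over other pseudogenes was not computed, so this count does not bear on where peaks were placed.

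EEF2, which drives translocation of the ribosome, had the most peaks of any member. In order along the gene, the goat antibody summits lay at −678, 440, 1917, 4924, 6126, 7582 and 10085 bp from the TSS, with fold enrichments of 3.60, 5.86, 3.89, 7.79, 9.04, 5.56 and 5.62. The strongest were in the middle of the 9408 bp gene, and the last was 678 bp past its end. The mouse antibody list had 5.98 at 9269 bp, in the 3′ UTR, and 3.88 at 10322 bp, where the sequence around the summit occurs 773 times in the genome. Both mouse antibody peaks overlapped the last goat antibody peak, and the 6 others had no mouse antibody counterpart.

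Sequences at the summit of the goat antibody peak of 9.19 inside EEF1A1, the stronger peak near its end not being shown, and of the peak of 9.04 inside EEF2 are printed in the gene's orientation, with the 21 bases centred on the summit in capitals. They lie at chr6:74229229-74229309 and chr19:3979295-3979375 of hg19, both on the minus strand.
EEF1A1: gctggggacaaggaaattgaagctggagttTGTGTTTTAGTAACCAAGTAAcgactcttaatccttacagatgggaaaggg
EEF2: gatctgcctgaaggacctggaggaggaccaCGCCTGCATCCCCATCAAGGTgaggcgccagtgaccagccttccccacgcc
The windows differ in base composition, with 43.2% G or C in EEF1A1 and 65.4% in EEF2.

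The remaining elongation factors of the EEF1 complex had few peaks. EEF1A2, the form restricted to certain tissues, EEF1B2 and EEF1D, which exchange nucleotide on EEF1A, and the structural subunit EEF1G had none in any list. EEF1E1, a protein of the multisynthetase complex, had 1 intronic goat antibody peak of 4.32. Among methyltransferases of the factors, EEF1AKMT3 had a goat antibody peak of 5.98 and a mouse antibody peak of 3.51, both upstream and near the divergent start of METTL1. EEF1AKMT4 had goat antibody peaks of 3.73 and 2.59 beside the divergent start of ALG3. The other methyltransferases, EEF1AKMT1, EEF1AKMT2 and EEF2KMT, had no peak. At the paired starts, occupancy of either gene cannot be told apart from these lists.

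In the EIF4 group, which binds the mRNA cap and unwinds the leader, 7 of 12 members had a goat antibody peak (58.3%, against 21.7% of all coding genes) and 5 a mouse antibody peak (against 7.79%). EIF4A2, an RNA helicase, carried the strongest goat antibody peak of all members, with a fold enrichment of 21.0 and rank 6 among the 8720. This peak was 5551 bp wide, and its summit lay 662 bp past the transcript end inside RFC4, a gene transcribed toward EIF4A2. It overlapped 4 snoRNA genes in EIF4A2 introns (SNORA4, SNORA81 and 2 annotated as SNORA63). The other goat antibody peaks of EIF4A2 were 4.16 at −406 bp and 6.60 at 1667 bp, the latter over SNORD2.

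The mouse antibody peaks of EIF4A2 had fold enrichments of 4.16, 4.52 and 4.91, and all 3 fell within the wide goat antibody peak. The summit of the last was 50 bp from the goat antibody summit. Goat antibody peaks lay over 84.6% of the 6321 bp transcript. The sequence at the goat antibody summit lies at chr3:186508308-186508388 of hg19, printed on the plus strand with the central 21 bases in capitals.
EIF4A2: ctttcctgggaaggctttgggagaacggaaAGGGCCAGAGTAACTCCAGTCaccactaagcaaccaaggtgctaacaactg

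EIF4A1, the paralogous helicase, had 5 goat antibody peaks and none with the mouse antibody. Their fold enrichments were 3.53 upstream of the TSS at −146 bp, then 4.76, 3.81 and 3.73 along the gene, and 5.25 at 744 bp past its end, near the start of CD68. EIF4A3, a relative that works in the exon junction complex, had 3.91 upstream and 3.04 inside the gene. EIF4B, a helicase cofactor, had 3.04 at 831 bp past its end.

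EIF4G1, the scaffold of the cap-binding complex, had goat antibody peaks of 4.23, 3.46 and 6.65, all in introns, and a mouse antibody peak of 4.44 at another intronic place. EIF4G2, a scaffold relative that lacks the EIF4E site, had 4.29 at −360 bp, 4.05 and 3.97 inside the gene, 3.74 across its end and 6.95 at 1657 bp past it. The last 3 lay within CTR9, which is transcribed toward EIF4G2 and overlaps its distal part. The mouse antibody peak of EIF4G2 had a fold enrichment of 3.54 and a summit 59 bp from the upstream goat antibody summit. Both of these summits also lay inside another annotated gene, within 1 kb of its TSS. EIF4G3 had intronic peaks only, 4.89 and 5.17 with the goat antibody and 3.60 with the mouse antibody, at 3 different places. EIF4E2, a relative of the cap-binding protein, had a mouse antibody peak of 5.42 beside the start of TIGD1 and no goat antibody peak. The cap-binding protein EIF4E had no peak, and neither did its relatives EIF4E1B and EIF4E3, the helicase cofactor EIF4H or any of the 4 proteins that bind and repress or carry EIF4E.

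**Figure D3:**
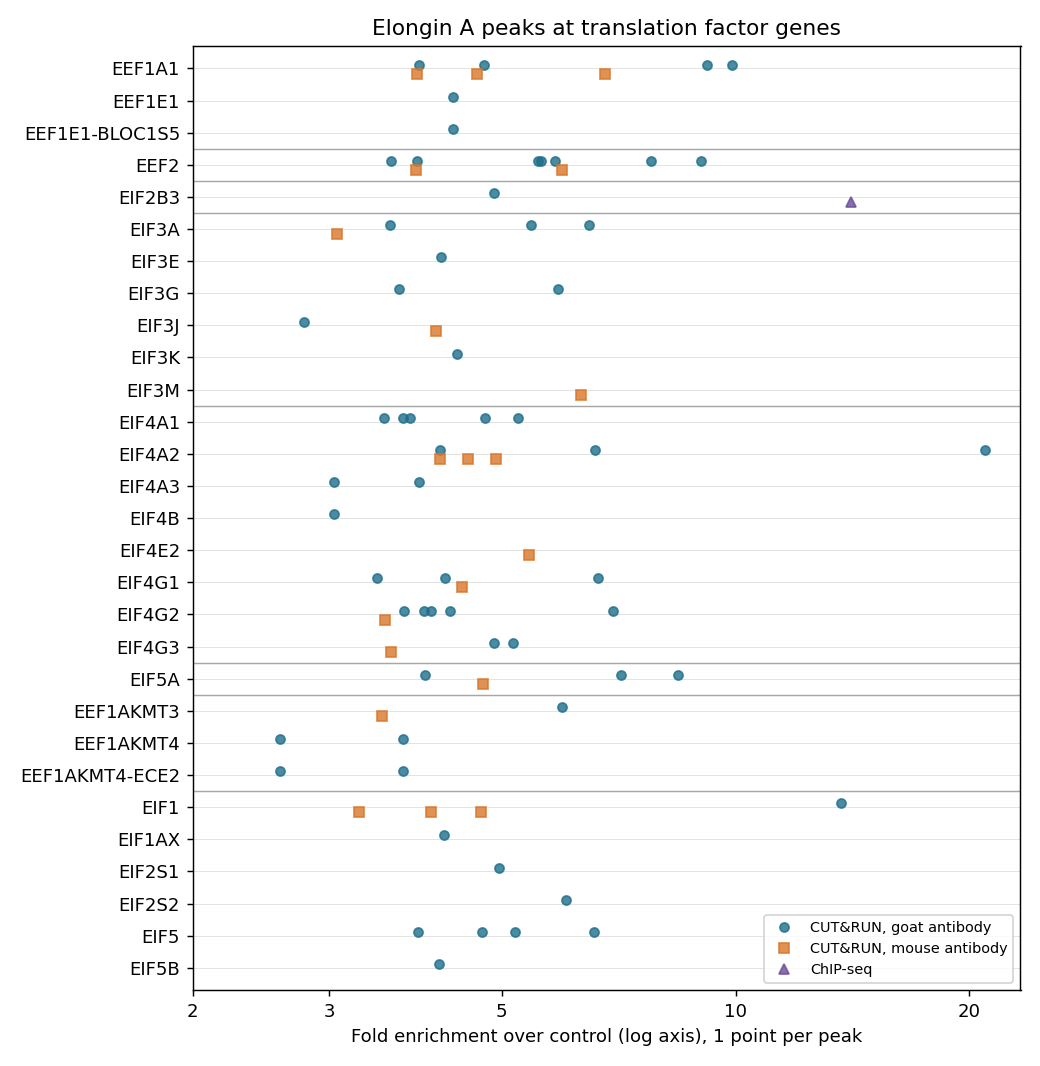
Fold enrichment over control (horizontal, log axis) of every peak at the 29 translation factor genes with a peak. Each point is 1 peak (circles, goat antibody; squares, mouse antibody; triangle, ChIP-seq), and grey lines separate roles. Most points lie between 3 and 7, and the EIF4A2 peak of 21.0, the EIF2B3 ChIP-seq peak of 14.1 and the EIF1 peak of 13.7 stand above the others.

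Among the factors for start codon selection, 6 of 13 had a goat antibody peak (46.2%, 23.2 to 70.9, against 21.7% of all coding genes) and 1 a mouse antibody peak (against 7.79%). EIF1, which guards start codon fidelity, was covered whole by a goat antibody peak of 5169 bp that ran from −652 bp to 4516 bp from its TSS, or 733 bp past its end, with a fold enrichment of 13.7 and rank 22. The mouse antibody gave 3 narrower peaks that overlapped it, 4.70 at −449 bp, 3.27 at 347 bp and 4.06 at 3476 bp. The last of these was 95 bp from the goat antibody summit. The EIF1 transcript is 3784 bp long.

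EIF5, which activates GTP hydrolysis by EIF2, had goat antibody peaks only in the distal part of the gene. Their summits lay at 6022, 8186, 9029 and 10190 bp of 10789 bp, with fold enrichments of 6.57, 5.20, 3.90 and 4.71, and the last 3 were in the 3′ UTR. EIF2S2, the beta subunit of EIF2, had 1 peak of 6.05 at 574 bp, and EIF2S1, the alpha subunit, 1 of 4.95 at −165 bp, beside the divergent start of ATP6V1D. The gamma subunit EIF2S3 and its relative EIF2S3B had none, and neither had EIF1B, EIF1AY, EIF1AD, EIF2A or EIF2D. EIF1AX, a scanning factor, had 4.21 at 609 bp. The peak of EIF5B, the subunit joining factor, was 4.16 at 155 bp past its end, inside REV1, and the sequence around that summit occurs at 2 places in the genome.

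Coverage of whole transcripts was measured for the 63 members with a canonical transcript of 3 kb or more. Goat antibody peaks lay over at least 50% of the transcript at 3 of them, EIF1, EIF4A2 and EEF1A1 (4.76%, 1.63 to 13.1), against 0.127% of 18116 such coding genes. Ranked by the share covered, these stood at 1, 5 and 7 among coding genes. Equal shares were given different ranks, so another gene covered whole could stand level with EIF1. At 25% or more, EIF5 (33.0%) and EEF2 (32.8%) joined these 3 members, making 5 (7.94% against 0.431%).

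In the EIF3 complex, which holds the small subunit in the initiation complex, 5 of 14 members had a goat antibody peak (35.7%, 16.3 to 61.2, against 21.7% of all coding genes) and 3 a mouse antibody peak (against 7.79%). EIF3A had goat antibody peaks of 6.47 at −219 bp, 3.59 at 1069 bp and 5.45 at 7446 bp, and a mouse antibody peak of 3.07 whose summit was 96 bp from the upstream one. Both upstream summits also lay inside another annotated gene, within 1 kb of its TSS. EIF3M had the second-highest mouse antibody value of the members, 6.33 at 1225 bp, and no goat antibody peak. EIF3J had a goat antibody peak of 2.78 at 748 bp and a mouse antibody peak of 4.11 on the other side of the TSS, in the divergent transcript EIF3J-DT. EIF3E had 4.17 at 470 bp. EIF3G had 3.68 at 183 bp and 5.91 at 349 bp past its end, inside P2RY11. The peak of EIF3K, 4.38 at 420 bp past its end, has a summit sequence found at 21 places in the genome. The other 8 EIF3 genes had no peak.

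EIF5A, the hypusine-containing elongation factor, had goat antibody peaks of 3.98 at −252 bp, 7.12 at 1443 bp and 8.44 at 1151 bp past its end, the last within GPS2 and near a start of that gene. The mouse antibody peak, 4.72, had its summit 56 bp from the upstream goat antibody summit. EIF5A2, EIF5AL1 and EIF6 had none. The upstream sites of EIF3A and EIF5A were found with both antibodies and are shown with the 21 bases centred on the goat antibody summit in capitals, at chr10:120840508-120840588 on the minus strand and chr17:7210655-7210735 on the plus strand of hg19.
EIF3A: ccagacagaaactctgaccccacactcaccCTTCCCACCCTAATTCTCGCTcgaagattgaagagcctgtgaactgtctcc
EIF5A: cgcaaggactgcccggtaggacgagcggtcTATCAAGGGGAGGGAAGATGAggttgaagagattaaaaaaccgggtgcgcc

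EIF2B, which recharges EIF2 with GTP, had a goat antibody peak at 1 of its 5 subunit genes (interval 3.62% to 62.4%), against 21.7% of all coding genes. EIF2B3 had the only ChIP-seq peak of the members, with a fold enrichment of 14.1 at −94 bp and rank 54 of 186. Its goat antibody peak, 4.89, was 61498 bp into the gene in an intron, so the lists did not mark the same place.

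The position of a summit was classed as promoter (from 1000 bp before a TSS to 100 bp after it), transcript end (from 100 bp before an end to 1000 bp after it), gene body or flank. With all annotated transcripts of a gene, 29.8% of the 57 goat antibody peaks (19.5 to 42.7) were at a transcript end, against 9.40% of 7150 gene-peak pairs over all coding genes. Members have more annotated transcripts, a median of 10 against 6, and so more such windows. Whether this bears on the difference was not tested. With the canonical transcript only, both shares were lower, 12.3% (6.08 to 23.2) against 4.27%. Within 1 kb either side of the canonical end lay 22.8% of the summits (13.8 to 35.2), against 7.02%. Intervals on shares of peaks, here and below, treat peaks as independent, although many lie at the same gene. By gene, 11 members (16.7%) had a goat antibody peak in a transcript end window, against 2.80% of coding genes, and 6 of the 22 short members did (27.3% against 4.00%).

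The share in promoters depended on the windows used. It was 36.8% (25.5 to 49.8) against 28.1% with all annotated starts and 17.5% (9.82 to 29.4) against 17.0% with the canonical start only. By gene, 11 members (16.7%) had a goat antibody peak in the canonical promoter, against 5.97% of coding genes, and 8 (12.1%) a mouse antibody peak, against 1.98%. With all annotated transcripts, 7 members (10.6%) had goat antibody peaks in both a promoter and a transcript end window, against 0.963%. Some of these promoter windows belong to internal starts, as at EIF5 (summit 6022 bp from the canonical TSS) and EIF4G1 (5308 bp). This count was not made with canonical windows. The mouse antibody placed 40.0% of its 20 peaks in the canonical promoter (21.9 to 61.3), against 22.0%.

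**Figure D4:**
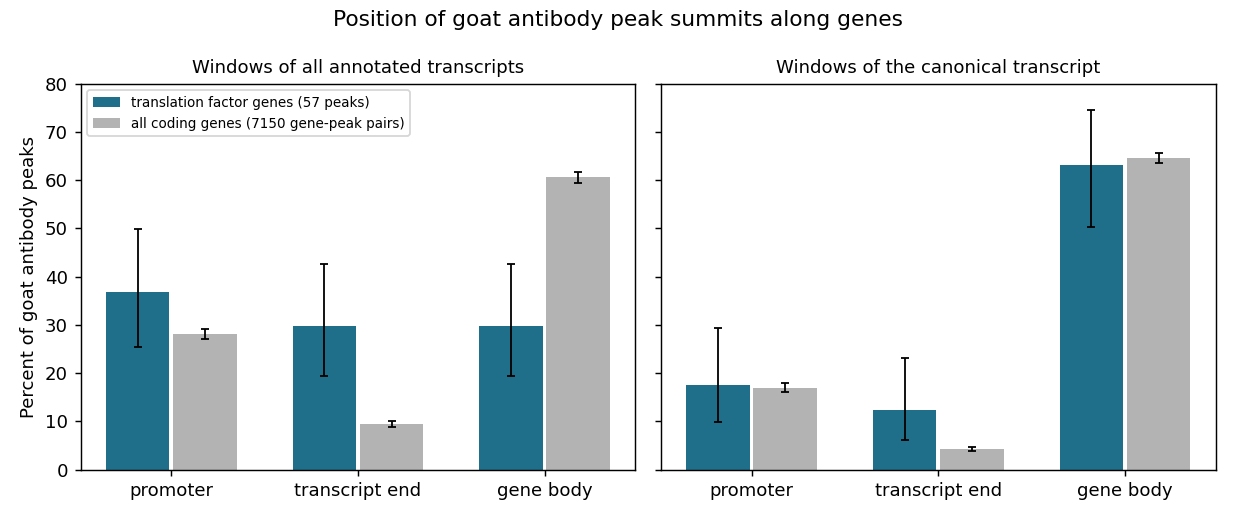
Percent of goat antibody peaks (vertical axis) whose summit lies in each class, for translation factor genes (dark bars) and all protein-coding genes (grey bars), with Wilson 95% intervals. The left panel uses all annotated transcripts and the right panel the canonical transcript. The transcript end share of the translation factor genes is higher in both panels, 29.8% against 9.40% and 12.3% against 4.27%, and the canonical promoter shares are 17.5% and 17.0%.

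Summits upstream of the canonical TSS were not at the start itself. The 11 goat antibody summits upstream lay between −1015 and −146 bp, with a median of −360 bp, and the 8 mouse antibody summits between −688 and −196 bp, with a median of −367 bp. Of those 11, 7 were within 1 kb of a TSS of another gene. The 10 goat antibody summits past the canonical end lay 155 to 6986 bp beyond it, with a median of 711 bp, and 8 of the 10 were inside another gene. Shares over peaks at all coding genes were not computed for these positions. Which of the overlapping genes a peak belongs to was not tested.

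Height, width and overlap between antibodies were also measured. The median fold enrichment of the goat antibody peaks was 4.71 (range 2.59 to 21.0), against 4.33 over all coding genes, whereas 24.6% of them were 1 kb or wider (15.2 to 37.1) against 5.83%. For the mouse antibody the median was lower at the members, 4.30 against 4.41, and 4 of the 20 peaks reached a fold enrichment of 5, against 27.2% over all coding genes. A mouse antibody peak overlapped 9 of the 57 goat antibody peaks (15.8% against 8.48%), and a goat antibody peak overlapped 14 of the 20 mouse antibody peaks (70.0% against 34.4%).

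The members that host snoRNAs nearly all had peaks. A snoRNA gene on the same strand lies within 9 members, and 8 of these had a goat antibody peak (88.9%, 56.5 to 98.0), against 45.3% of 424 coding genes that host one. They were EEF2, EIF1AX, EIF3A, EIF4A1, EIF4A2, EIF4G1, EIF4G2 and EIF5, and the exception was EEF1B2. All but EIF1AX among the 8 had 3 or more peaks, which makes 7 of 9 (77.8% against 17.5%). Goat antibody peaks that overlapped a small RNA gene itself numbered 2, both at EIF4A2, and the share over all coding genes was not computed.

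Genes with related roles in translation were counted in the same way, against 21.7% of all coding genes for the goat antibody and 7.79% for the mouse antibody. Among the kinases that act on the factors, 1 of 5 had a goat antibody peak (EIF2AK3, which phosphorylates EIF2 under stress of the endoplasmic reticulum, at most 2.94). Of the termination and recycling genes, 2 of 8 had one (ABCE1, 5.90, and ETF1, 4.34), as had 4 of 10 poly(A)-binding and helicase partners, 4 of 9 mitochondrial factors and 8 of 20 cytosolic aminoacyl-tRNA synthetases. Mouse antibody peaks stood at 1, 1, 0, 0 and 2 genes of these lists, in the same order. YARS1, the tyrosyl-tRNA synthetase, was the only gene of these lists with a peak in all 3 lists, at fold enrichments of 6.77, 5.23 and 31.6 for the goat antibody, the mouse antibody and ChIP-seq.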

How the data were processed

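Per the labels and the study's methods, the authors mapped the read pairs on hg19 (Bowtie2), discarded PCR duplicates (Picard) and ran MACS2 with its default settings. Goat IgG is named as the CUT&RUN control and input as the ChIP-seq control. How the 2 goat antibody replicates were combined, and which control the mouse antibody list used, is not given in the sources used here. The deposited fold enrichment is the ratio of summit signal to control that MACS2 computed. The deposited −log10 q-value came from the same program. The deposited score and −log10 p-value were not used. Depth is unknown.

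Gene, transcript and snoRNA positions came from GENCODE 44 on GRCh37 coordinates, and sequences from the GRCh37 genome, whose chromosome lengths fit hg19. Peaks were joined to genes with 1 kb either side by an overlap of at least 1 bp. Shares carry Wilson intervals at 95%, and no test was run, because each antibody has 1 list. Copies of the 32 bases around each summit were counted in the genome. Scripts were tested on simulated data (Python 3.11.15, pandas 2.3.3, pysam 0.24.0). Named genes were those with peaks in 2 or more lists, the highest fold enrichments, 3 or more goat antibody peaks or a peak over a snoRNA, and a set of core factors. Further members with peaks were named, and transcript coverage and transcript end windows were measured, after values were seen. Members and lists were chosen with earlier results of these data known.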

Additional observations from a re-analysis of the deposited data

How the results depend on the processing

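Counts of members with a goat antibody peak were 24 with no flank (18.6% of all coding genes) and 31 with 5 kb either side (24.9%). They were 27 with the summit in the window (21.4%), 25 without repeated summit sequences (21.3%) and 21 of 52 without accessory genes (21.7%). A q-value under 0.001 left 19 of the 66, against 17.7% of all coding genes. With a fold enrichment of at least 5 the count was 14 (8.70% of coding genes). The mouse antibody count was 4 at that fold enrichment (2.36%) and 7 at a q-value under 0.001 (4.23%). It was 9 to 14 under the alternatives other than these (6.30% to 9.19% of all coding genes). The ChIP-seq count was 1 throughout. Goat antibody peaks shared with the mouse antibody numbered 2 of 23 when both had to reach a fold enrichment of 5. They numbered 6 of 40 at a q-value under 0.001 in both lists and 9 of 57 otherwise. Shares over all coding genes were not computed for these alternatives.

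The promoter share was 14.0% with only the start of the gene and 17.5% with the canonical start, the latter chosen after seeing the data, and 26.1% to 42.1% otherwise. It was below that of all coding genes with only the start of the gene (14.2%) and at a fold enrichment of 5 or more (26.1% against 28.3%). Members with a goat antibody peak at a transcript end numbered 7 with canonical ends (1.50% of coding genes), 6 at a fold enrichment of at least 5 (1.15%), 7 at a q-value under 0.001 (2.29%) and 9 without repeated summit sequences, all chosen after seeing the data. In each of these transcript end settings the share of members was above that of coding genes. No paired analysis was possible because the 2 goat antibody replicates are in 1 list with no value per replicate, and for the same reason neither replicate could be left out. Unknown depth limits what the absence of a peak shows.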
